A study of Rattus norvegicus with 24 samples.

Results

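The genes described here are 9 feedback inhibitors of extracellular signal-regulated kinase (ERK) signalling. They are the dual-specificity phosphatases Dusp1, Dusp4, Dusp5 and Dusp6, the Sprouty genes Spry1, Spry2 and Spry4, and the Sprouty-related genes Spred1 and Spred2. They were listed by gene symbol, with earlier results of these data known, and all 9 are among the 17055 genes counted. Of these, 7 were among the 9994 genes that passed the filter on low counts and were tested, and Spry1 and Spry2 did not pass it. Total RNA was sequenced from PC12 cells, a rat pheochromocytoma line that resembles adrenal chromaffin cells. A stable line expressed human α1ACT, a transcription factor made from the CACNA1A transcript, from the plasmid pcDNA3, and the control line carried pcDNA3 with no insert. The labels give 4 times (6 h, 24 h, 3 d, 10 d) and 3 replicates per line and time, so there are 8 groups and 24 libraries.

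All groups were PC12 cells at passages 18 to 20 in F-12K medium with horse serum and FBS, with no treatment named. The groups were α1ACT cells and pcDNA3 vector cells at each of the 4 times, and the labels do not say what the times are counted from. Each genotype was 1 stable line, so a difference between α1ACT and vector cells is also a difference between those lines, and whether either line was a single clone is not stated. The human transgene was not analysed here. The labels call the 3 libraries of a group biological replicates without naming separate cultures, and p-values therefore cover the spread among these libraries, which may be technical.

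ERK is switched on by a relay that runs from receptor tyrosine kinases through Ras, Raf and MEK, and in PC12 cells the duration of ERK activity is a textbook determinant of whether the cells divide or grow neurites. Several of the feedback genes are themselves induced by ERK activity. Their products limit it at separate levels: DUSP proteins remove the activating phosphates from ERK or related kinases, while Sprouty and Spred proteins act upstream on Ras and Raf.

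The names of the count tables disagreed with the sample labels. In the sample titles, Q11 marks the α1ACT line and P the vector line, and the titles match the other labels. The table names gave another time for 18 of the 24 libraries, and for 12 of these another line as well. By the table names, the libraries labelled α1ACT and vector at 6 h were P at 24 h and P at 6 h, and those labelled α1ACT and vector at 24 h were P at 10 d and P at 3 d. Likewise, the libraries labelled α1ACT and vector at 3 d were Q11 at 24 h and Q11 at 6 h, and those at 10 d were Q11 at 10 d and Q11 at 3 d. The 4 closest pairs of groups over all tested genes were those that share a time by the table names, at a root mean square difference of log2 CPM (counts scaled to library size) of 0.18 to 0.22, and the next closest pair stood at 0.37. The groups below are those of the labels, means by the table names are given beside them for most tested members, and which of them is right was not tested. Under the table names, each labelled line difference below is a difference between times within 1 line.

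The libraries held 8679560 to 14486248 counts on genes, with a median of 11663500. PC12 identity was checked with 14 chromaffin cell genes, of which 13 were in the tables and all 13 were detected in all 24 libraries, with summed levels of 27899 to 38858 CPM. Of the markers of other cell types, 5 of 6 epithelial genes were detected in all libraries, against 2 of 8 fibroblast genes, 2 of 6 Schwann or glial genes and 1 of 6 immune genes. Col1a2, Lum and Fap (fibroblast), Sox10 (Schwann or glial) and Ptprc (immune) were at 0 throughout. In bulk RNA, fewer cells of a type and less RNA per cell cannot be told apart.

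Promoter sequences are shown for Dusp6 and Dusp5, whose levels correlated over the libraries, and for Dusp1, whose levels did not follow theirs. They were taken from RefSeq on build GRCr8, which is not the rn5 build named for the counts, and 8 of the 9 genes matched a sequence. Each runs 5′ to 3′ up to the base before the annotated gene start, on the plus strand. The cAMP response element (TGACGTCA), the AP-1 site (TGACTCA), the ETS site (CCGGAAGT) and the CArG box of serum response factor were searched on both strands in the 250 bases before an annotated transcript start, and matches are in capitals.
Dusp6, chr7:35979354-35979501, 148 of 250 bases, the rest lying past the annotated gene start: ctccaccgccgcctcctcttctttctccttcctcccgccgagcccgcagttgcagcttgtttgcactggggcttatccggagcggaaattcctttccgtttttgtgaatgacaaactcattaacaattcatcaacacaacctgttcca
Dusp5, chr1:262543524-262543773, 250 bases: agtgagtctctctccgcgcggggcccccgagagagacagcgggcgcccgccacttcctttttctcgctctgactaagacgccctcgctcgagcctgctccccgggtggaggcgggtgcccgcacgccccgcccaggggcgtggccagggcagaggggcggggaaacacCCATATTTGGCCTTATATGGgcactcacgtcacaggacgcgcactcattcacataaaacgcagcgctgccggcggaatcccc
Dusp1, chr10:17184603-17184852, 250 bases: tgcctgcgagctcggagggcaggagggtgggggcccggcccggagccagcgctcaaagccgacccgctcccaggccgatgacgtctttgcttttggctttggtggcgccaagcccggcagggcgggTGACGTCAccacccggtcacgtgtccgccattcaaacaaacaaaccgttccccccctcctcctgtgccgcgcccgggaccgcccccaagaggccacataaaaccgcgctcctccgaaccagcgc
In Dusp5 the capitals mark 2 CArG boxes that adjoin without overlap and begin 82 and 72 bases before the start, and in Dusp1 a cAMP response element that begins 124 bases before it. No other member's window held any of the 4 motifs. Over 33469 RefSeq promoter windows, 1.5% held a CArG box, 1.59% the cAMP response element, 4.05% the AP-1 site and 3.1% the ETS site. A match describes these letters only, and binding was not measured.

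At 6 h and 3 d the ERK feedback genes that differed were lower in α1ACT than in vector cells, with the widest differences for Dusp6. At 24 h and 10 d the share of members called lower was near that of all genes. Of the 7 tested members, at 6 h 4 were lower and 0 higher at an adjusted p below 0.05 (edgeR's quasi-likelihood test), where 41.6% of all tested genes differed (20.5% higher, 21.2% lower). At 24 h, 2 were lower and 0 higher, where 55.5% of genes differed (26.6% higher, 28.8% lower). At 3 d, 6 were lower and 0 higher, where 39.4% of genes differed (19.9% higher, 19.4% lower). At 10 d, 2 were lower and 1 was higher, where 58.9% of genes differed (29.5% higher, 29.4% lower). The median log2 fold change of the 7 was -0.38 at 6 h, -0.25 at 24 h, -0.45 at 3 d and -0.25 at 10 d, against medians over all tested genes of 0.00, -0.02, 0.01 and 0.01. Without TMM factors the all-gene split at 6 h moved to 60.3% of calls higher in α1ACT cells, against 49.1% with them, and that at 3 d to 59.7%, against 50.6%. The 4 comparisons share no libraries.

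**Figure D1:**
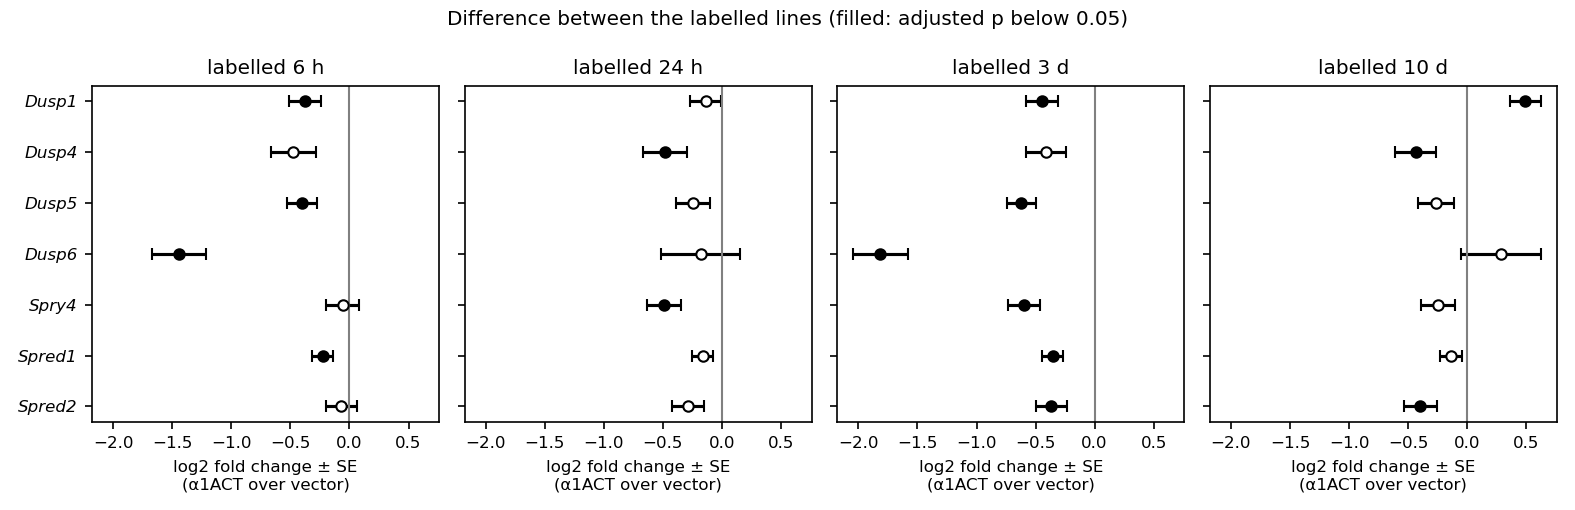
Log2 fold change of α1ACT over vector cells (x axis) for the 7 tested members (y axis) at each labelled time, with bars for the standard error and filled points for an adjusted p below 0.05. All 7 points lie below 0 at 6 h, 24 h and 3 d, and at 10 d those of Dusp1 and Dusp6 lie above 0. Dusp6 lies farthest below 0 at 6 h (-1.45) and at 3 d (-1.81).

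Spry1 and Spry2, Sprouty proteins that block growth factor signalling upstream of ERK, were at or near 0. Spry1 had 0 counts in all 24 libraries, and Spry2 had 1 count, in α1ACT replicate 3 at 10 d (0.117 CPM). A count of 0 over all libraries together allows a level of up to 0.0109 CPM (3 counts in 276290036 scaled counts), and in a single library of up to 0.206 to 0.352 CPM. These floors cover counting error only. Neither gene was tested, and no fold is given.

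Dusp6 encodes a cytoplasmic phosphatase with high selectivity for ERK. At 6 h its level was 2.22, 3.25 and 4.05 CPM in α1ACT cells, against 7.45, 8.84 and 9.69 CPM in vector cells. The 3 d level was 2.85, 2.53 and 2.64 CPM in α1ACT cells, against 7.06, 13.2 and 8.09 CPM in vector cells. The 2 lines did not overlap at either time, and every α1ACT library lay below every vector library. At 24 h it was 1.85, 1.84 and 0.957 CPM in α1ACT cells, against 2.07, 1.59 and 1.51 CPM in vector cells. At 10 d it was 1.90, 1.91 and 2.11 CPM in α1ACT cells, against 1.25, 1.93 and 1.67 CPM in vector cells. The lines overlapped at both of these times, where a library held 12 to 28 counts of the gene. Dusp6 was 2.72-fold lower in α1ACT cells at 6 h (log2 fold change -1.45 ± 0.23 (SE), adjusted p = 1.65e-05) and 3.52-fold lower at 3 d (-1.81 ± 0.23, adjusted p = 1.01e-06). The differences at 24 h (-0.18 ± 0.34, adjusted p = 0.673) and 10 d (0.29 ± 0.34, adjusted p = 0.478) did not pass the threshold. The line difference itself varied over the labelled times (interaction of line and time, adjusted p = 0.000196).

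Within the vector line, Dusp6 was 4.98-fold lower at 24 h than at 6 h (-2.32 ± 0.25, adjusted p = 1.17e-08) and 5.83-fold lower at 10 d than at 3 d (-2.54 ± 0.25, adjusted p = 2.30e-09). Within the α1ACT line it was 2.07-fold lower at 24 h than at 6 h (-1.05 ± 0.30, adjusted p = 0.00656), a call that ended without α1ACT replicate 3 at 24 h (adjusted p = 0.0637). Its difference at 10 d from 3 d in that line was -0.44 ± 0.31 (adjusted p = 0.264). In order of level, the 4 groups from α1ACT 24 h (mean 1.55 CPM) to α1ACT 10 d (1.97 CPM) overlapped with their neighbours, as did α1ACT 3 d with α1ACT 6 h (2.67 and 3.17 CPM) and vector 6 h with vector 3 d (8.66 and 9.46 CPM). Between those 3 blocks the libraries did not overlap, and the highest group mean was 6.12 times the lowest. By the table names, the same means read 9.46, 2.67, 1.62 and 1.97 CPM in Q11 at 6 h, 24 h, 3 d and 10 d, and 8.66, 3.17, 1.72 and 1.55 CPM in P at those times. In that order, both lines were high at 6 h and low from 24 h on. The line difference did not vary over time under the table names beyond the threshold (adjusted p = 0.818).

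**Figure D2:**
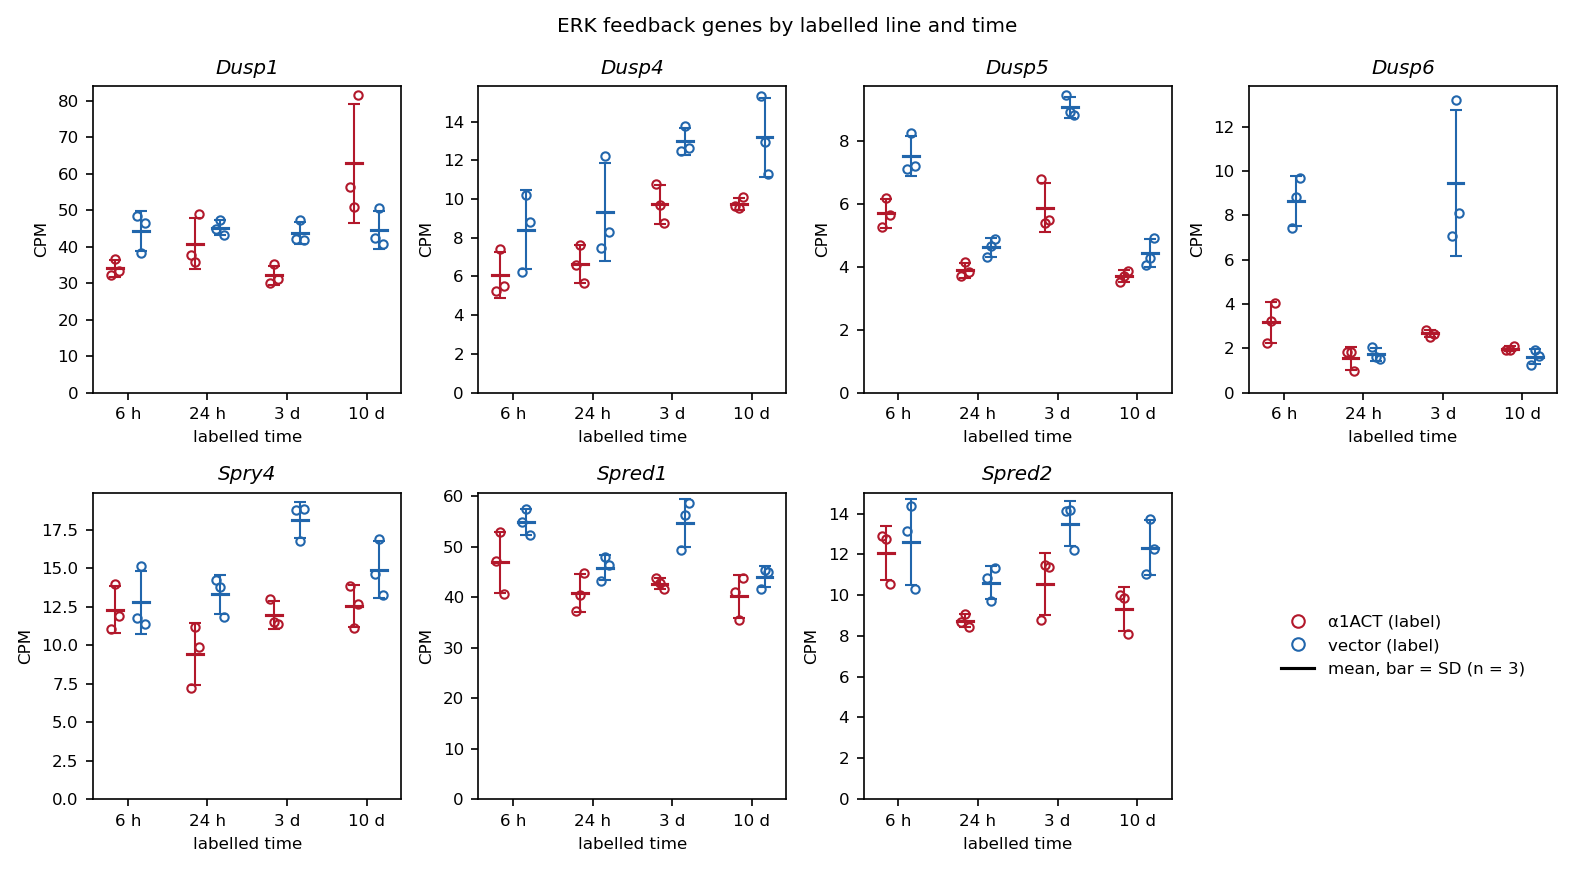
CPM (y axis, from 0) of the 7 tested members in each library by labelled time (x axis), with α1ACT left of vector at each time. Points are libraries, lines are means and bars are SD (n = 3). Dusp6 stands apart in the vector libraries at 6 h (7.45 to 9.69 CPM) and 3 d (7.06 to 13.2 CPM).

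Dusp5, a nuclear phosphatase that acts on ERK and holds it in the nucleus, had an order of levels close to that of Dusp6. At 6 h its level was 5.26, 6.17 and 5.65 CPM in α1ACT cells, against 7.10, 8.23 and 7.20 CPM in vector cells. The 3 d libraries held 6.77, 5.39 and 5.47 CPM in α1ACT cells, against 9.44, 8.91 and 8.81 CPM in vector cells. The lines were apart at both times, with α1ACT lower. The 24 h level averaged 3.89 ± 0.238 CPM in α1ACT cells and 4.61 ± 0.291 CPM in vector cells, and at 10 d 3.70 ± 0.182 CPM in α1ACT cells and 4.42 ± 0.444 CPM in vector cells (SD, n = 3 each). Dusp5 was lower in α1ACT cells at 6 h (-0.40 ± 0.13, adjusted p = 0.0134) and 3 d (-0.62 ± 0.12, adjusted p = 0.000298). At 24 h (-0.25 ± 0.14, adjusted p = 0.188) and 10 d (-0.26 ± 0.15, adjusted p = 0.193) the libraries of the lines did not overlap, but the test was not passed. The call at 6 h ended without α1ACT replicate 1 (adjusted p = 0.0615), without vector replicate 2 (adjusted p = 0.0854) and with these groups fitted alone (adjusted p = 0.0518).

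The time difference of Dusp5 was called in both lines. It was lower at 24 h than at 6 h in α1ACT cells (-0.55 ± 0.14, adjusted p = 0.00255) and in vector cells (-0.70 ± 0.13, adjusted p = 4.37e-05). It was also lower at 10 d than at 3 d in α1ACT cells (-0.68 ± 0.15, adjusted p = 0.000550) and in vector cells (-1.03 ± 0.13, adjusted p = 1.22e-07). Without replicate 3 of all groups the α1ACT call at 24 h over 6 h ended (adjusted p = 0.0512), and without replicate 1 that at 10 d over 3 d did (adjusted p = 0.0580). The 4 groups at 24 h and 10 d (means 3.70 to 4.61 CPM) lay below the 4 groups at 6 h and 3 d (means 5.69 to 9.06 CPM) with no overlap. Read by the table names, Dusp5 averaged 9.06, 5.88, 4.42 and 3.70 CPM in Q11 at 6 h, 24 h, 3 d and 10 d, and 7.51, 5.69, 4.61 and 3.89 CPM in P at those times, so that its mean was lower at each later time in both. Across the 24 libraries, log2 CPM of Dusp5 and Dusp6 correlated at r = 0.89, of Dusp5 and Spred1 at r = 0.80, and of Dusp6 and Spred1 at r = 0.73, as a description over libraries that share 8 groups.

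The summed level of the epithelial markers was highest in the same groups as Dusp5 and Dusp6. It was 964 to 1112 CPM in α1ACT cells at 6 h and 1531 to 1848 CPM in vector cells at 6 h. At 3 d it was 961 to 1203 CPM in α1ACT cells and 1309 to 1778 CPM in vector cells. The sum at 24 h was 687 to 709 CPM in α1ACT cells and 526 to 554 CPM in vector cells, and at 10 d 719 to 776 CPM in α1ACT cells and 540 to 556 CPM in vector cells. Krt8 alone ran between 257 and 1273 CPM across the libraries. Of the 5 epithelial genes tested, 4 were lower and 0 higher in α1ACT cells at 6 h and at 3 d, and 2 were lower and 2 higher at 24 h and at 10 d. Their median log2 fold change was -0.48 at 6 h, -0.41 at 24 h, -0.47 at 3 d and -0.37 at 10 d, and their part in the result was not tested.

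Dusp1, an immediate early gene, encodes a nuclear phosphatase of p38, JNK and ERK. At 6 h its level was 32.3, 36.6 and 33.3 CPM in α1ACT cells, against 48.5, 38.1 and 46.4 CPM in vector cells. At 3 d it was 30.1, 35.2 and 31.1 CPM in α1ACT cells, against 42.1, 47.3 and 41.9 CPM in vector cells. At both times the α1ACT libraries lay below the vector libraries with no overlap. At 24 h it was 37.7, 35.8 and 48.9 CPM in α1ACT cells, against 45.0, 47.4 and 43.2 CPM in vector cells. At 10 d it was 56.2, 50.7 and 81.4 CPM in α1ACT cells, against 42.3, 50.6 and 40.8 CPM in vector cells. The order was turned round at 10 d, where replicate 3 of the α1ACT cells stood well above the other 2. Dusp1 was lower in α1ACT cells at 6 h (-0.38 ± 0.14, adjusted p = 0.0279) and 3 d (-0.45 ± 0.14, adjusted p = 0.0120) and higher at 10 d (0.49 ± 0.13, adjusted p = 0.00224). At 24 h the difference was -0.14 ± 0.13 (adjusted p = 0.386). The line difference varied over the labelled times (interaction adjusted p = 0.000398), and under the table names it did not pass the threshold (adjusted p = 0.172).

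Within α1ACT cells, Dusp1 was 1.95-fold higher at 10 d than at 3 d (0.96 ± 0.14, adjusted p = 2.75e-06) and 1.53-fold higher at 10 d than at 24 h (0.61 ± 0.13, adjusted p = 0.0123). In vector cells the 4 group means lay between 43.8 and 45.2 CPM. By the table names the highest group was Q11 at 10 d, with a mean of 62.8 CPM against 40.8 CPM in P at 10 d. Its lowest library (50.7 CPM) was just above the highest library of any other group (50.6 CPM). The call at 10 d between the lines ended without α1ACT replicate 3, where the log2 fold change was 0.27 (adjusted p = 0.0536), and so did that of 10 d against 24 h (0.38, adjusted p = 0.132). That of 10 d against 24 h ended also without α1ACT replicate 1 (adjusted p = 0.0538) or replicate 2 (adjusted p = 0.0904) at 24 h and with these groups fitted alone (adjusted p = 0.101). The call at 6 h ended without α1ACT replicate 1 or 3 (adjusted p = 0.0919 and 0.0721) or vector replicate 1 or 3 (adjusted p = 0.120 and 0.0818). The call at 3 d ended without α1ACT replicate 1 (adjusted p = 0.0546) or vector replicate 2 (adjusted p = 0.0613). The α1ACT libraries at 10 d held 8679560 to 10038749 counts and had the highest shares of reads outside genes (52.3% to 52.9%), whose part in the Dusp1 result was not tested.

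Dusp4, a nuclear phosphatase induced by growth factors, was called lower in α1ACT cells at 24 h and 10 d and was higher in the 2 later labelled times together. At 6 h its level was 5.26, 7.42 and 5.48 CPM in α1ACT cells, against 6.21, 10.2 and 8.79 CPM in vector cells. At 24 h it was 6.59, 7.63 and 5.66 CPM in α1ACT cells, against 7.48, 12.2 and 8.30 CPM in vector cells. The lines overlapped at both times, and vector replicate 2 was the highest library of each. At 3 d it was 10.8, 9.68 and 8.75 CPM in α1ACT cells, against 12.5, 13.8 and 12.7 CPM in vector cells. The 10 d level was 9.62, 9.53 and 10.1 CPM in α1ACT cells, against 15.3, 13.0 and 11.3 CPM in vector cells. At these times the α1ACT libraries lay below the vector libraries without overlap. The log2 fold change was -0.47 ± 0.19 at 6 h (adjusted p = 0.0517), -0.48 ± 0.19 at 24 h (adjusted p = 0.0307), -0.41 ± 0.17 at 3 d (adjusted p = 0.0594) and -0.44 ± 0.17 at 10 d (adjusted p = 0.0343). With the replicate number as a block the value at 3 d passed (adjusted p = 0.0344), and 7 of the 7 tested members were then lower. In that fit 4147 of all 9994 tested genes were called at 3 d, 50.7% of them higher in α1ACT cells. The interaction with time was not passed (adjusted p = 0.992).

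The Dusp4 calls were close to the threshold. At 24 h the call ended without α1ACT replicate 1 or 3 (adjusted p = 0.0650 and 0.158), without vector replicate 2 (log2 fold change -0.26, adjusted p = 0.247) and with these groups fitted alone (adjusted p = 0.0664). At 10 d it ended without α1ACT replicate 1, 2 or 3 (adjusted p = 0.0787, 0.0807 and 0.0554) and without vector replicate 1 or 2 (adjusted p = 0.166 and 0.0533). The value at 6 h passed without α1ACT replicate 2 (adjusted p = 0.0167), without vector replicate 1 (adjusted p = 0.0110), with RLE factors (adjusted p = 0.0469), without the low-count filter (adjusted p = 0.0443) and with DESeq2 (adjusted p = 0.0380). The value at 3 d passed with these groups fitted alone (adjusted p = 0.0119) and with no filter (adjusted p = 0.0441). With the table names, Dusp4 averaged 13.0, 9.73, 13.2 and 9.75 CPM in Q11 at 6 h, 24 h, 3 d and 10 d, and 8.41, 6.05, 9.34 and 6.63 CPM in P at those times.

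The 3 d and 10 d groups together against the 6 h and 24 h groups correspond, by the table names, to Q11 against P. In this contrast 2 of the 7 tested members were higher and 0 lower, where 15.6% of all tested genes differed (8.25% higher, 7.37% lower). Dusp4 was 1.51-fold higher (0.60 ± 0.09, adjusted p = 5.30e-05) and Spry4 1.20-fold higher (0.26 ± 0.07, adjusted p = 0.0121). The Dusp4 value passed in all 32 alternatives, and the Spry4 value in 30 of 32, since it ended without replicate 1 (adjusted p = 0.349) or replicate 3 (adjusted p = 0.151) of all groups. The 4 single comparisons behind it were each in the same direction for Dusp4, at 0.69 ± 0.19 for α1ACT cells and 0.62 ± 0.18 for vector cells at 3 d over 6 h, and 0.56 ± 0.19 for α1ACT cells and 0.52 ± 0.17 for vector cells at 10 d over 24 h. None of these 4 Dusp4 values passed alone (adjusted p of 0.0591 to 0.0953). Those of Spry4 did not all share a direction. They were -0.04 ± 0.14 for α1ACT cells and 0.50 ± 0.14 for vector cells at 3 d over 6 h. At 10 d over 24 h they were 0.42 ± 0.15 and 0.17 ± 0.13, and none of the 4 passed (adjusted p of 0.0609 to 0.969).

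In those single comparisons, edgeR called 0 of the 7 members in α1ACT cells at 3 d over 6 h, where 1.06% of genes differed (0.800% higher, 0.260% lower), and 0 in vector cells at 3 d over 6 h, where 1.47% of genes differed (1.14% higher, 0.330% lower). At 10 d over 24 h, 1 member, Dusp1, was higher in α1ACT cells, where 4.62% of genes differed (2.21% higher, 2.41% lower), and 0 were called in vector cells, where 7.44% of genes differed (4.29% higher, 3.15% lower). These all-gene shares moved widely with the libraries used. Without replicate 1, 2 and 3 in turn, 4, 763 and 24 genes were called in α1ACT cells at 10 d over 24 h, against 462 with all, and 89, 1132 and 79 in vector cells, against 744. For the comparisons with 0 calls, the members with an unadjusted p below 0.05 numbered 1 in α1ACT cells and 3 in vector cells at 3 d over 6 h, and 1 in vector cells at 10 d over 24 h. Of all 9994 tested genes, 1021, 1284 and 2260 had an unadjusted p below 0.05 in these 3 comparisons. DESeq2 called 1, 2 and 0 members in the same 3 comparisons, and 124, 209 and 776 of the 9994 genes. By the table names these are the comparisons of Q11 with P at 24 h, 6 h and 3 d.

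**Figure D3:**
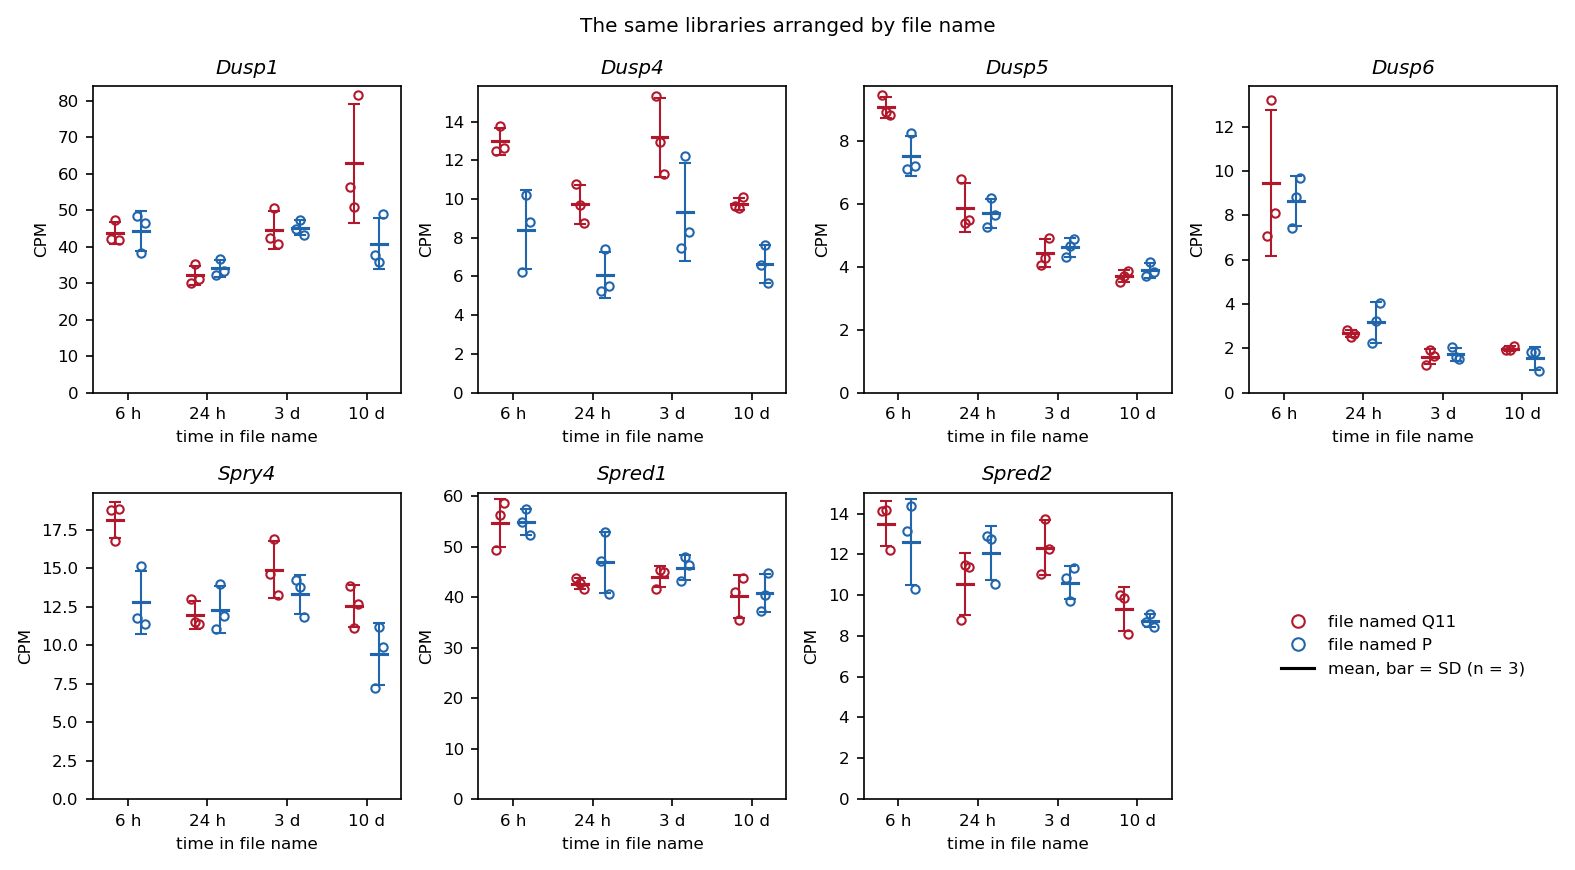
The same CPM values (y axis, from 0) arranged by the line and time in the table names (x axis), with Q11 left of P at each time. Points are libraries, lines are means and bars are SD (n = 3). In this order Dusp6 is high at 6 h in both Q11 (mean 9.46 CPM) and P (mean 8.66 CPM), and Dusp4 is higher in Q11 than in P on average at each time.

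Spry4, a Sprouty protein that interferes with Ras activation, was the member of its family with counts in all libraries. At 24 h its level was 7.21, 11.2 and 9.88 CPM in α1ACT cells, against 14.2, 13.8 and 11.9 CPM in vector cells. At 3 d it was 13.0, 11.5 and 11.4 CPM in α1ACT cells, against 18.8, 16.8 and 18.9 CPM in vector cells. Every α1ACT library lay below every vector library at these 2 times. At 6 h it was 11.1, 14.0 and 11.9 CPM in α1ACT cells, against 11.8, 15.2 and 11.4 CPM in vector cells. At 10 d it averaged 12.5 ± 1.36 CPM in α1ACT cells and 14.9 ± 1.85 CPM in vector cells (SD, n = 3 each), with overlap at both of these times. Spry4 was lower in α1ACT cells at 24 h (-0.50 ± 0.14, adjusted p = 0.00503) and 3 d (-0.60 ± 0.14, adjusted p = 0.00109). The values at 6 h (-0.06 ± 0.14, adjusted p = 0.775) and 10 d (-0.25 ± 0.14, adjusted p = 0.136) did not pass, and neither did the interaction with labelled time (adjusted p = 0.0766). In α1ACT cells it was lower at 24 h than at 6 h (-0.39 ± 0.15, adjusted p = 0.0336).

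The Spry4 call at 24 h ended without α1ACT replicate 1 (adjusted p = 0.0574), the lowest library of that group. The call of 24 h against 6 h in α1ACT cells ended without α1ACT replicate 1 or 3 at 24 h (adjusted p = 0.239 and 0.0600, the first with a log2 fold change of -0.23), without α1ACT replicate 2 or 3 at 6 h (adjusted p = 0.196 and 0.0501) and with these groups fitted alone (adjusted p = 0.0738). The value at 3 d over 6 h in vector cells, 0.50 ± 0.14 (adjusted p = 0.0609), passed without vector replicate 2 at 3 d (adjusted p = 0.0498) or at 6 h (adjusted p = 0.0453), and with DESeq2 (adjusted p = 0.0367). Under the table names, Spry4 averaged 18.16, 11.98, 14.92 and 12.54 CPM in Q11 at 6 h, 24 h, 3 d and 10 d, and 12.79, 12.33, 13.30 and 9.43 CPM in P at those times.

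Spred1 and Spred2 encode membrane-bound inhibitors of Ras, and Spred1 brings the Ras inactivator neurofibromin to the membrane. Spred1 varied least among the tested members, with a highest group mean 1.37 times the lowest. At 6 h its level was 47.1, 52.9 and 40.7 CPM in α1ACT cells, against 55.0, 57.5 and 52.3 CPM in vector cells. At 3 d it was 43.8, 42.8 and 41.6 CPM in α1ACT cells, against 49.4, 56.2 and 58.7 CPM in vector cells. The lines overlapped at 6 h and were apart at 3 d. At 24 h it averaged 40.9 ± 3.78 CPM in α1ACT cells and 45.9 ± 2.44 CPM in vector cells, and at 10 d 40.2 ± 4.22 CPM in α1ACT cells and 44.1 ± 2.08 CPM in vector cells (SD, n = 3 each). Spred1 was lower in α1ACT cells at 6 h (-0.23 ± 0.09, adjusted p = 0.0365) and 3 d (-0.35 ± 0.09, adjusted p = 0.00219), but the values at 24 h (-0.16 ± 0.09, adjusted p = 0.117) and 10 d (-0.14 ± 0.09, adjusted p = 0.202) did not pass. In vector cells it was lower at 24 h than at 6 h (-0.26 ± 0.09, adjusted p = 0.0105) and at 10 d than at 3 d (-0.31 ± 0.09, adjusted p = 0.00302). The call at 6 h ended without any of 4 libraries, namely α1ACT replicate 1 or 3 (adjusted p = 0.0736 and 0.242, the second with a log2 fold change of -0.14) and vector replicate 1 or 2 (adjusted p = 0.0744 and 0.129), and without TMM factors (adjusted p = 0.0786). That of 24 h against 6 h in vector cells ended without vector replicate 1 at 24 h (adjusted p = 0.0539). For Spred1, the table names gave means of 54.8, 42.7, 44.1 and 40.2 CPM in Q11 at 6 h, 24 h, 3 d and 10 d, and 54.9, 46.9, 45.9 and 40.9 CPM in P at those times.

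For Spred2, the level at 3 d was 8.77, 11.5 and 11.4 CPM in α1ACT cells, against 14.1, 14.1 and 12.2 CPM in vector cells. At 10 d it averaged 9.32 ± 1.07 CPM in α1ACT cells and 12.3 ± 1.35 CPM in vector cells (SD, n = 3 each). The lines were apart at both times with α1ACT lower, and the calls were made at 3 d (-0.37 ± 0.13, adjusted p = 0.0284) and 10 d (-0.40 ± 0.14, adjusted p = 0.0161). At 6 h it averaged 12.1 ± 1.32 CPM in α1ACT cells and 12.6 ± 2.10 CPM in vector cells (SD, n = 3 each), with a log2 fold change of -0.07 ± 0.13 (adjusted p = 0.702). At 24 h it averaged 8.74 ± 0.319 CPM in α1ACT cells and 10.6 ± 0.823 CPM in vector cells (-0.29 ± 0.14, adjusted p = 0.0775). In α1ACT cells it was lower at 24 h than at 6 h (-0.47 ± 0.14, adjusted p = 0.00703). The call at 3 d ended without α1ACT replicate 1 (adjusted p = 0.188) or vector replicate 1 or 2 (adjusted p = 0.0882 and 0.0925). The call at 10 d ended without α1ACT replicate 3 (adjusted p = 0.0895) or vector replicate 2 (adjusted p = 0.0803). For Spred2, the table names gave means of 13.50, 10.54, 12.33 and 9.32 CPM in Q11 at 6 h, 24 h, 3 d and 10 d, and 12.60, 12.06, 10.62 and 8.74 CPM in P at those times.

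Within a line, the members that differed at 24 h over 6 h and at 10 d over 3 d were mostly lower at the later time. At 24 h over 6 h, 4 were lower and 0 higher in α1ACT cells, where 44.1% of genes differed (21.7% higher, 22.4% lower), and 3 were lower and 0 higher in vector cells, where 61.5% of genes differed (31.6% higher, 29.9% lower). At 10 d over 3 d, 1 was lower and 1 higher in α1ACT cells, where 44.6% of genes differed (21.8% higher, 22.8% lower), and 3 were lower and 0 higher in vector cells, where 64.2% of genes differed (33.2% higher, 31.0% lower). Dusp5 was lower in all 4 of these comparisons. These comparisons share libraries with those of the lines. The labelled levels did not fall throughout. From 24 h to 3 d, a step that was not tested, the means of all tested members but Dusp1 were higher at 3 d in both lines. Vector Dusp6, for example, averaged 1.72 CPM at 24 h and 9.46 CPM at 3 d, and Dusp1 was lower at 3 d in both lines. The interaction of line and labelled time was called for 2 of the 7 members, Dusp1 and Dusp6, where 57.7% of all tested genes were called. Under the table names edgeR called it for 0 of the 7, where 0.0400% of genes were. At an unadjusted p below 0.05 there were 2 members, where 1219 of all 9994 tested genes were. DESeq2 called it for 1 member, where 125 of the 9994 genes were called.

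The genes whose log2 CPM was most like that of each member over the 24 libraries are given by Pearson's r, as a description of libraries that share groups. For Dusp6 they were Arpc5 (r = 0.97), PVR (0.97) and Ugt1a2 (0.97), which may share reads with other Ugt1a genes, and for Dusp5 Abcf1 (0.96), Btbd10 (0.96) and Map3k6 (0.95). For Dusp1 they were Junb (0.86), a subunit of AP-1, Cpeb4 (0.81) and Ippk (0.80), and for Dusp4 Elavl4 (0.84), a neuronal RNA-binding protein, Itgb1 (0.81) and Eif5a2 (0.80). For Spry4 they were RGD1566265 (0.84), Uba1 (0.79) and Socs6 (0.77). For Spred1 they were Trappc8 (0.91), Rbm34 (0.89) and Cltc (0.87), and for Spred2 Agpat6 (0.82), Rps6kb2 (0.81) and Sf1 (0.81). Among the members, Dusp4 and Spry4 correlated at r = 0.69, and Dusp1 and Dusp5 at r = -0.30.

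Other genes of the pathway are given as counts of those called in α1ACT against vector cells. Over all tested genes, 20.5% were higher and 21.2% lower at 6 h, 26.6% and 28.8% at 24 h, 19.9% and 19.4% at 3 d, and 29.5% and 29.4% at 10 d. Of 6 other phosphatases of MAP kinases, 1 was higher and 1 lower in α1ACT cells at 6 h, at 24 h and at 10 d, and 0 higher and 1 lower at 3 d. Dusp8, which acts on JNK and p38, was lower at all 4 times (-0.47, -0.59, -0.56 and -0.56), Dusp7, an ERK phosphatase, was higher at 6 h (0.24), and Dusp10, a phosphatase of JNK and p38, was higher at 24 h (0.97) and 10 d (0.99). Of 9 other feedback inhibitors tested, 2 were higher and 1 lower at 6 h, 1 and 2 at 24 h, 3 and 0 at 3 d, and 1 and 3 at 10 d. The Ras inactivator Dab2ip was higher at 6 h (0.27) and 3 d (0.41) and lower at 24 h (-0.32) and 10 d (-0.33). Pea15, which holds ERK in the cytoplasm, was higher at 24 h (0.44) and 10 d (0.60), and Errfi1, an inhibitor of the EGF receptor, was lower at 10 d (-0.64). Rasal2 was lower at 6 h (-0.18) and Nf1, which encodes neurofibromin, higher at 3 d (0.21).

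Of 29 tested genes of the cascade and its receptors, 4 were higher and 7 lower in α1ACT cells at 6 h, 6 and 14 at 24 h, 3 and 8 at 3 d, and 6 and 12 at 10 d. The adaptor Shc4 was lower at all 4 times (-1.20, -1.95, -1.26 and -1.99). At 6 h and 3 d it averaged 0.474 and 0.678 CPM in α1ACT cells, against 1.09 and 1.61 CPM in vector cells. These α1ACT levels are close to the floor of a single library (0.206 to 0.352 CPM). The neurotrophin receptor Ngfr was higher at 6 h (0.61) and 3 d (0.52). The receptor tyrosine kinase Ret was higher at 24 h (1.16) and 10 d (1.36), where the insulin receptor Insr was lower (-1.23 and -1.17). Of 27 tested genes known as transcriptional targets of ERK or as immediate early genes, 3 were higher and 17 lower at 6 h, 2 and 7 at 24 h, 3 and 16 at 3 d, and 2 and 6 at 10 d. Their median log2 fold change was -0.86 at 6 h, -0.37 at 24 h, -0.83 at 3 d and -0.03 at 10 d, against the all-gene medians given above. The largest changes were in Fosl1 (-3.77), Klf4 (-1.79) and Srf (-1.58) at 6 h, and in Fosl1 (-4.45), Klf4 (-1.79) and Nr4a1 (-1.79) at 3 d. They were in Etv5 (-1.85), Myc (-1.76) and Klf6 (-0.70) at 24 h, and in Myc (-2.10), Etv5 (-1.78) and Btg2 (1.21) at 10 d. Fosl1 averaged 1.13 ± 0.585 CPM in α1ACT cells and 15.7 ± 1.41 CPM in vector cells at 6 h. At 3 d it averaged 0.736 ± 0.232 and 16.1 ± 4.46 CPM (SD, n = 3 each). Its α1ACT level at 3 d is, like those of Shc4, close to the floor of a single library, which limits the size of its fold. The α1ACT libraries were uneven for Btg2 at 10 d, at 93.6 ± 49.9 CPM against 40.2 ± 1.44 CPM in vector cells (SD, n = 3 each). By the table names, the comparison labelled 3 d sets 24 h against 6 h within Q11, and that labelled 6 h does so within P.

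**Figure D4:**
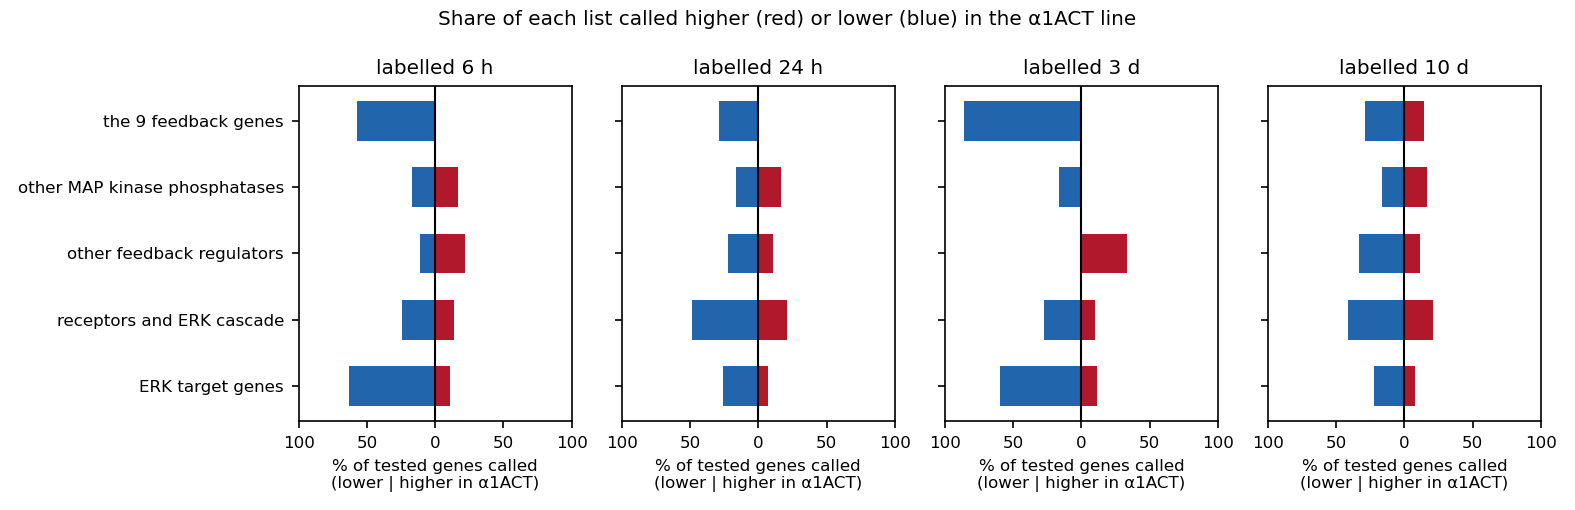
Share of tested genes called higher (red, to the right) or lower (blue, to the left) in α1ACT than in vector cells (x axis, percent) for the feedback members and the other ERK lists (y axis), at each labelled time. At 3 d, 6 of the 7 tested members and 16 of the 27 ERK targets were lower, where 19.4% of all tested genes were.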

How the data were processed

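Total RNA of 24 libraries was sequenced with a stranded kit after removal of ribosomal RNA, per the labels. For each library the authors deposited raw read counts as whole numbers by gene symbol, not normalized. The submitters' processing notes name FastQC 0.11.2, TopHat2 2.0.10, Picard 1.117, HTSeq 0.5.4p5, edgeR and build rn5. The sources used here give no annotation, strand setting or handling of duplicates. Reads of overlapping antisense genes may therefore not be separated. Library sizes and tests leave out the 5 summary lines of each table, and reads outside genes were 47.8% to 52.9%.

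The members and lists were chosen with earlier results of these data known. The test was edgeR 4.0.16's quasi-likelihood F-test (R 4.3.3) on counts with TMM factors, with all 24 libraries in 1 fit of 8 groups and 16 residual degrees of freedom. Genes were kept by group at a minimum count of 10 and a minimum total of 15, and p-values were Benjamini-Hochberg adjusted over all 9994 genes at 0.05. The SE is the absolute log2 fold change divided by the square root of F. CPM is relative to TMM-scaled counts on genes. Log2 CPM for correlations and distances has a prior count of 2.

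All members were named. The 3 genes most like each tested member were named by r. From each other list, the 3 with the largest absolute log2 fold change among called genes with a mean of at least 2 CPM were named in the comparisons of the lines, apart from some that are not reported here. Same-numbered libraries deviated together in α1ACT against vector cells at 3 d (r = 0.12, 0.32 and 0.14 over genes, all above 0.1). The other comparisons did not have all 3 values above 0.1, though the lines at 6 h came close (0.16, 0.34 and 0.098). Replicate 2 had the highest value in every comparison. The main fit did not pair libraries in any comparison, and the replicate number entered only as a block in an alternative fit. No pair of replicates was within sampling noise of each other (chi-square over degrees of freedom 1.98 to 11.3). The alternatives were RLE factors, no factors, no filter, DESeq2 1.42.0, a replicate block, the groups compared alone, and each library or replicate number left out. The procedure was tested on simulated data. That simulation changed a small share of genes in a single group, so it cannot check the normalization where a large share of genes differs.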

Additional observations from a re-analysis of the deposited data

Results flagged for a closer look

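Dusp1 and Dusp6 were singled out because their difference between α1ACT and vector cells varied over the labelled times by the test of the difference itself. That test was called for 57.7% of all tested genes by the labels and 0.0400% by the table names, so a call by the labels is not particular to these members. For Dusp1 the adjusted p of the interaction of line and labelled time was 0.000398, with 32 of 32 alternatives past the threshold. For Dusp6 it was 0.000196, also with 32 of 32. With lines and times taken from the table names, the adjusted p was 0.172 for Dusp1, with 4 of 32 alternatives past the threshold, and 0.818 for Dusp6, with 0 of 32.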

How the results depend on the processing

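Of 1484 values of single members under the alternatives, 1371 kept their side of the threshold, 69 fell short of it and 44 newly passed it. Of all 1484, 62 changed sign, and of these 0 were past the threshold in either setting and the largest was 0.22 in size. Counts of called members moved by more than 1.5 times under these processing settings, and in most comparisons when libraries were left out. With no filter on low counts, 1 was called at 3 d over 6 h in α1ACT cells, 2 in vector cells, 1 at 10 d over 24 h in vector cells and 1 for the interaction under the table names. Of all 13187 genes in that fit, 145, 226, 831 and 112 were called in the same order. With DESeq2, 1 was called at 3 d over 6 h in α1ACT cells, 2 in vector cells and 1 for the interaction under the table names. Of all 9994 genes, 124, 209 and 125 were. With these groups fitted alone, 1 was called in α1ACT against vector cells at 24 h, 1 at 3 d over 6 h in α1ACT cells, 1 in vector cells, and 0 at 10 d over 24 h in α1ACT cells. Over all 9994 genes the calls were 5217, 159, 188 and 71. With the replicate block, 1 was called at 3 d over 6 h in α1ACT cells, 2 in vector cells and 1 at 10 d over 24 h in vector cells. Of the 9994 genes, 193, 258 and 963 were. Same-numbered libraries deviated together above r = 0.1 at all 3 numbers for the lines at 3 d, and not in these comparisons. The cause of these moves was not tested.

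Leaving out libraries or replicate numbers gave 1 to 5 called members for α1ACT against vector cells at 6 h, 0 to 2 at 24 h, 4 to 6 at 3 d and 0 to 3 at 10 d. For 24 h over 6 h it gave 2 to 5 in α1ACT cells and 2 to 4 in vector cells, and for 10 d over 3 d 1 to 2 in α1ACT cells and 3 to 4 in vector cells. For 3 d over 6 h it gave 0 to 1 in α1ACT cells and 0 to 2 in vector cells, and for 10 d over 24 h 0 to 3 in α1ACT cells and 0 to 1 in vector cells. It gave 1 to 2 for 3 d and 10 d over 6 h and 24 h, 2 to 3 for the interaction by labels and 0 to 1 by table names. Over all genes, without replicate 1, 2 and 3 in turn the calls at 3 d over 6 h numbered 7, 358 and 8 in α1ACT cells, against 106 with all libraries, and 6, 478 and 5 in vector cells, against 147. For 3 d and 10 d over 6 h and 24 h they numbered 313 without replicate 1 and 505 without replicate 3, against 1562 with all. The interaction under the table names was called for 125 genes by DESeq2, 112 with no filter, 47 with the block, 381 without replicate 2 and 0 without replicate 1 or 3, against 4. With the groups fitted alone, 71 genes were called at 10 d over 24 h in α1ACT cells, against 462, and 312 in vector cells, against 744. Without replicate 1 and 3 the calls were 2540 and 2638 for α1ACT against vector cells at 6 h, against 4162, and 2462 and 2457 at 3 d, against 3934. With the block, calls at 3 d over 6 h were 193 in α1ACT cells and 258 in vector cells, and with no filter 226 in vector cells. Dusp6 rested on 12 to 28 counts per library at 24 h and 10 d, which limits those comparisons.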
